A study of Mus musculus with 26 samples.

Results

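ERR gamma, the orphan nuclear receptor encoded by Esrrg, was compared with wild-type ERR beta, encoded by Esrrb, as the receptor made in mouse embryonic stem cells that lack ERR beta. The comparison used 6 of the 26 libraries of the series. KO_ERRg_wt was the ERR beta-knockout with an inducible wild-type ERR gamma construct, in clones 14-1-10 and 14-11 with 1 library each. KO_ERRb_wt was the same knockout with an inducible wild-type ERR beta construct, in clones 8-3 and 8-4 with 2 libraries each. Libraries of a clone were added together, so n = 2 clones in each group. All these cells carried the ERR beta -/- genotype and were seeded at 1600 cells and given doxycycline at 2 µg/ml for 3 days, which switches the constructs on. The N2B27 medium held PD, which inhibits MEK, and CH, which inhibits GSK3, and the labels differ on whether LIF was also present. Levels in 5 other groups of 2 clones are given beside some genes. These are the knockout with an ERR beta deficient in binding DNA (KO_ERRb_DBDm3), TFIIH (KO_ERRb_DBDm6) or coactivators (KO_ERRb_AF2M6) and, with an empty construct only, the knockout (KO_mock) and wild-type cells (WT_mock).

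The ERR receptors bind DNA without a known hormone, mostly as monomers, at an extended site whose core is AAGGTCA. ERR beta is a transcription factor of the naive pluripotency network in mouse embryonic stem cells. ERR gamma is best known in heart, muscle and other tissues of high energy demand, where, with ERR alpha, it drives genes of mitochondrial oxidation. The design sets ERR gamma in the place of ERR beta. Each clone also carries its own number, but the titles do not say whether clones of a group were established separately.

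To show what the core looks like at genes described below, 4 stretches of 60 bases upstream of gene starts are printed, with the core in capitals. They come from RefSeq promoter windows (GRCm38.p6, from 250 bases before to 50 after the start). Ndufb4 (respiratory complex I) lies at chr16:37654390-37654449 on the minus strand, and Ctsa (lysosome) at chr2:164832645-164832704 on the plus strand. Got1 (aspartate aminotransferase) lies at chr19:43524796-43524855 on the minus strand, and Pim3 (a kinase gene of the LIF-STAT3 list) at chr15:88861997-88862056 on the plus strand, where the core is on the opposite strand.
Ndufb4: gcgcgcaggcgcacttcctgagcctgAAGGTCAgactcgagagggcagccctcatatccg
Ctsa: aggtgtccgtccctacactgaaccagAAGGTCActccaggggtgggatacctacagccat
Got1: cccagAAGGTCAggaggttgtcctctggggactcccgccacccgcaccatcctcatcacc
Pim3: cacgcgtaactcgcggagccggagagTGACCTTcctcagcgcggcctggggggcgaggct
In these windows the match ends 48, 194, 238 and 164 bases before the start of Ndufb4, Ctsa, Got1 and Pim3. They are 4 of the 9 named genes whose window held the core, and were picked from those that were higher in KO_ERRg_wt, with log2 fold changes of 0.48, 0.73, 0.66 and 0.76. Others of the 9 were Psmb10, lower at -1.02, and Zscan4c, at 0. The core AAGGTCA, searched on both strands, was in 4.72% of all 32851 windows. It was in 76 of 1527 matched genes that were higher in KO_ERRg_wt off chromosomes 6 and 8 (4.98%), in 31 of 791 that were lower (3.92%) and in 4.06% of those not called. The longer TNAAGGTCA was in 18 of the 1527 higher genes (1.18%) and in 6 of the 791 lower genes (0.759%), against 0.96% of genes not called and 0.953% of all 11119 matched genes. A match in these windows is a description and not a bound site.

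The libraries of the 2 groups held 22385740 to 27875142 counts, and clone totals were 27875142 and 25103562 in KO_ERRg_wt against 48245061 and 46707156 in KO_ERRb_wt. Levels below are in CPM, which are counts put on 1 scale across clones of unequal depth. The stem cell identity of the clones was checked on Pou5f1, the Oct4 gene, which had 808 and 723 CPM in KO_ERRg_wt and 839 and 784 CPM in KO_ERRb_wt. The median absolute log2 difference per gene was 0.072 between the KO_ERRg_wt clones and 0.12 between the KO_ERRb_wt clones, against 0.208 between the group means, over 11425 genes. The labels do not say that the clones were grown on separate days, so a p-value reflects only how far clones vary, and whatever else set the clones of a group apart is part of it.

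Esrrg (chromosome 1, 187609006 to 188214884, plus strand, 15 exons in the annotation) had 229 and 126 CPM in the KO_ERRg_wt clones. It had 2 counts of 94952217 in both KO_ERRb_wt clones together. The groups do not overlap, and the ratio was 8543, with an exact 95% interval of 2364 to 70551 that covers counting error only. Clone 14-1-10 was the higher of the pair, and the mean was 177 ± 73.1 CPM (SD, n = 2). Esrrb (chromosome 12, 86361117 to 86521628, plus strand, 14 exons) averaged 474 ± 5.06 CPM in KO_ERRg_wt and 430 ± 19 CPM in KO_ERRb_wt (SD, n = 2 each), and this difference did not pass the test (log2 0.17 ± 0.0736, SE, adjusted p = 0.121 with edgeR's quasi-likelihood test). KO_mock still had 274 ± 1.26 CPM at Esrrb, and gene counts do not separate a construct's transcripts from those of the disrupted gene. In the same test KO_ERRg_wt, whose construct is of ERR gamma, was above KO_mock at Esrrb (log2 0.77 ± 0.0741, adjusted p = 3.4e-05). KO_ERRb_wt was above KO_mock there by log2 0.6 ± 0.0739 (adjusted p = 0.00377). The level of Esrrb therefore does not show whether the ERR beta construct was on. Esrra, the gene of ERR alpha, had 27.6 ± 3.09 CPM in KO_ERRg_wt and 28.1 ± 1.08 CPM in KO_ERRb_wt (log2 0.00 ± 0.104, adjusted p = 0.994). Per kilobase of annotated exon, the KO_ERRg_wt clones held 41 and 22.5 CPM of Esrrg and 103 and 102 CPM of Esrrb, while the KO_ERRb_wt clones held 95.9 and 90.1 CPM of Esrrb. Which of the annotated bases the constructs hold was not checked, so these values do not rank Esrrg against Esrrb.

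Genes of chromosomes 6 and 8 were lower as a whole in KO_ERRg_wt and are therefore kept apart. Against the KO_ERRb_wt mean, the median over 547 expressed genes of chromosome 6 was -0.379 and -0.392 on the log2 scale in the KO_ERRg_wt clones, or 0.769 and 0.762 as a ratio. On chromosome 8 the median over 623 genes was -0.533 and -0.556, or 0.691 and 0.68 as a ratio. The clones of KO_ERRb_wt lay within 0.014 of 0 on both chromosomes. The shift ran along each whole chromosome. Of 11 bins of 10 Mb with at least 20 genes on chromosome 6, the medians ran between -0.519 and -0.268 in clone 14-1-10 and between -0.523 and -0.256 in clone 14-11. On chromosome 8, with 12 such bins, they ran between -0.617 and -0.346 and between -0.656 and -0.387. On the other 18 chromosomes the KO_ERRg_wt medians lay between -0.009 and 0.102, with X the highest.

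The same shift was not particular to ERR gamma. On chromosome 8 the 6 mutant clones lay between -0.56 and -0.455. On chromosome 6, clone 9-6 of KO_ERRb_DBDm3 lay at -0.423 and the other 5 mutant clones between -0.985 and -0.962. KO_mock clones lay at -0.012 and -0.007 on chromosome 6 and at -0.003 and -0.015 on chromosome 8. Whether a gene on these chromosomes differs through the receptor or through whatever shifted the chromosome cannot be told apart in this design, since both KO_ERRg_wt clones carry the shift and neither KO_ERRb_wt clone does. Effects of the shift on genes elsewhere cannot be told apart from the receptor either. WT_mock had a shift of its own on chromosome 14, where its clones lay at 0.542 and 0.555. The KO_ERRg_wt clones lay at 0.01 and 0.023 on chromosome 14.

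**Figure D1:**
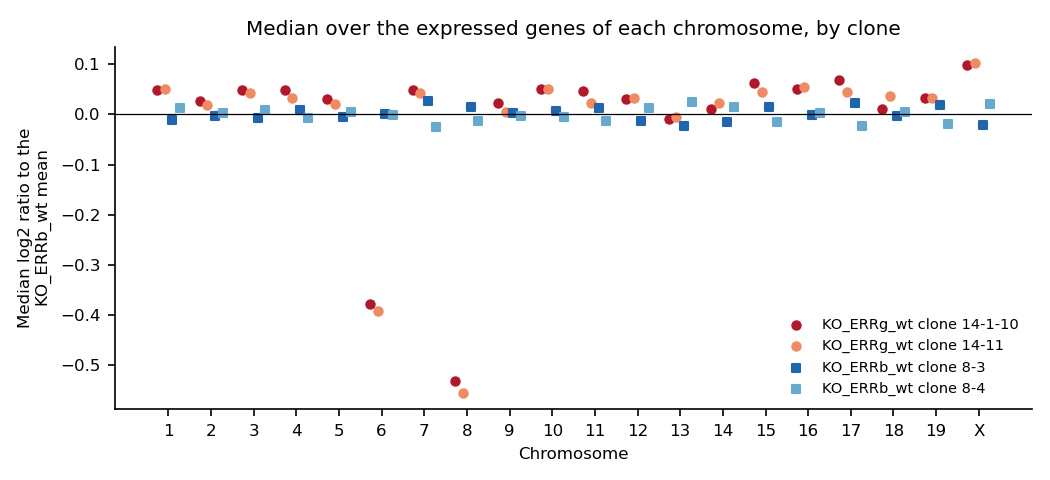
Median log2 ratio to the KO_ERRb_wt mean over the expressed genes of each chromosome (x axis), for each clone: KO_ERRg_wt clones as circles, KO_ERRb_wt clones as squares. The KO_ERRg_wt clones sit near -0.38 to -0.39 on chromosome 6 and near -0.53 to -0.56 on chromosome 8, while the other chromosomes lie between -0.009 and 0.102.

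A gene was called where its adjusted p was below 0.05. Of 13707 genes tested off chromosomes 6 and 8, 1998 were higher in KO_ERRg_wt (14.6%) and 1103 were lower (8.05%), and the median log2 fold change of all of them was 0.025. At least 2-fold changes were found for 578 of the higher and 365 of the lower genes. On chromosome 6, 35 of 736 genes were higher (4.76%) and 239 lower (32.5%), so that 37.2% were called. On chromosome 8, 22 of 795 were higher (2.77%) and 473 lower (59.5%), so that 62.3% were called. The called share was 22.6% off both chromosomes. The spread was estimated over all 14 clones, of which the KO_ERRb_DBDm3 pair differed on chromosome 6 (-0.423 and -0.985). In a fit of the 4 clones alone, 59 genes were higher and 385 lower on chromosome 6. On chromosome 8 that fit gave 34 higher and 534 lower. The called shares of chromosomes 6 and 8 therefore do not rank their shifts. Over all chromosomes, 25.4% of 15238 tested genes were called, 13.5% higher and 11.9% lower. Each call rests on 2 clones against 2, and the total of 3870 called genes became 2826 without clone 8-3, 1895 without 8-4, 1744 without 14-1-10 and 1775 without 14-11. The clones of the groups did not overlap for 68.7% of all tested genes, so a gap between the groups is the usual case here and is not a call.

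**Figure D2:**
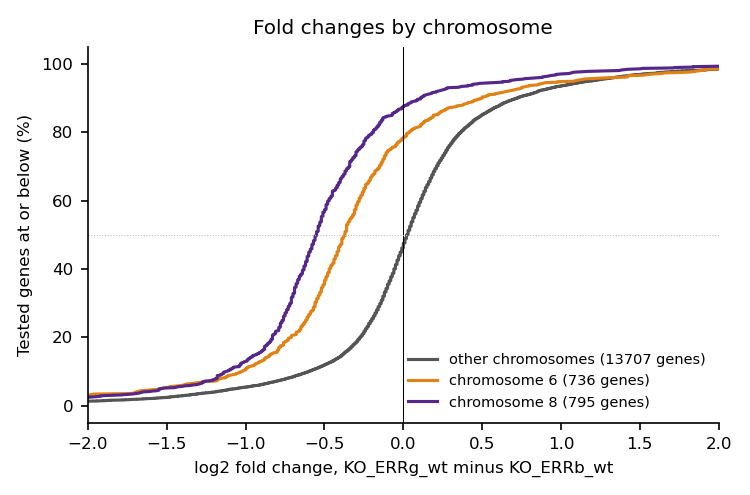
Percent of tested genes (y axis) at or below each log2 fold change, KO_ERRg_wt minus KO_ERRb_wt (x axis, shown between -2 and 2), for chromosome 6 (736 genes), chromosome 8 (795 genes) and all other chromosomes (13707 genes). The curves of chromosomes 6 and 8 lie left of the curve of the others, with medians of -0.375 and -0.554 against 0.025.

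Among called genes, the 12 highest and 12 lowest fold changes off chromosomes 6 and 8 and the X block are given here. They were taken from genes whose log2 CPM averaged at least 1 in these 4 clones and whose groups did not overlap. After Esrrg itself, the largest rise among them was in Tgfbi, an extracellular matrix protein gene induced by TGF-beta. It had 12.8 and 14.8 CPM in KO_ERRg_wt against 0.702 and 0.949 CPM in KO_ERRb_wt (log2 4.06 ± 0.36, SE, adjusted p = 5.56e-05). Grb10, an imprinted adaptor gene of growth factor signalling, had 95.2 and 119 CPM in KO_ERRg_wt against 6.18 and 7.78 CPM in KO_ERRb_wt (log2 3.94 ± 0.712, adjusted p = 0.00354). These 2 genes differ in the remaining groups. Tgfbi lay between 0.619 and 2.12 CPM in all mutant clones, whereas Grb10 had 49.4 and 46.5 CPM in KO_ERRb_DBDm3, 93.7 and 50.8 in KO_ERRb_DBDm6, 56.5 and 8.01 in KO_ERRb_AF2M6 and 7.19 and 7.03 in KO_mock. Trpm1, a cation channel gene, had 73.3 and 70.6 CPM in KO_ERRg_wt against 11.6 and 9.23 CPM in KO_ERRb_wt (log2 2.79 ± 0.326, adjusted p = 0.000233). Its levels in the mutant clones, 108 to 236 CPM, were above those with ERR gamma. Lama3, a laminin chain gene, had 18.8 and 19.6 CPM in KO_ERRg_wt against 2.39 and 2.78 CPM in KO_ERRb_wt (log2 2.89 ± 0.293, adjusted p = 9.78e-05).

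The other highest were Rec114 (meiotic recombination, log2 3.48), Napsa (an aspartic protease, 3.10), Rhox9 (an X-linked homeobox gene), Oas1a (2.95), Col26a1 (2.94), Mep1b (2.93) and Dnajc6 (2.75). Rhox9 lost its call whichever clone was left out (adjusted p 0.0639 to 0.111). The other genes named here kept theirs in all 4 cases. Rec114 had 12.8 and 16.3 CPM in KO_ERRg_wt, 7.49 and 22.6 CPM in KO_ERRb_DBDm3 and 1.38 and 1.22 CPM in KO_ERRb_wt, so the mutant clones bracketed the ERR gamma clones.

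At the other end, Ptgs1, a cyclooxygenase gene, fell to 0.538 and 0.355 CPM in KO_ERRg_wt, against 12.2 and 9.19 CPM in KO_ERRb_wt (log2 -4.56 ± 0.637, adjusted p = 0.000599). Dnmt3l, the cofactor of the de novo DNA methyltransferases, had 11.2 and 15.5 CPM in KO_ERRg_wt against 181 and 223 CPM in KO_ERRb_wt (log2 -3.93 ± 0.221, adjusted p = 8.97e-06). Its level with ERR gamma was below every other clone of the series, including wild-type cells at 89.9 and 109 CPM and KO_mock at 342 and 349 CPM. T, the brachyury gene of early mesoderm, had 3.69 and 2.56 CPM in KO_ERRg_wt against 51.2 and 34.5 CPM in KO_ERRb_wt (log2 -3.77 ± 0.902, adjusted p = 0.0136). That call was lost without clone 14-1-10 (adjusted p = 0.0691) and without 14-11 (0.0869).

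Nlrc4, an inflammasome sensor gene, had 4.16 and 4.22 CPM in KO_ERRg_wt against 39.8 and 63.4 CPM in KO_ERRb_wt (log2 -3.62 ± 0.405, adjusted p = 0.000184). Id3, a helix-loop-helix inhibitor gene downstream of BMP, had 5.38 and 5.52 CPM in KO_ERRg_wt against 39.1 and 54.6 CPM in KO_ERRb_wt (log2 -3.1 ± 0.473, adjusted p = 0.000981). As the choice of these genes required, both were lower in every ERR gamma clone than in any ERR beta clone. The rest of the lowest were Nnat (an imprinted gene, log2 -3.72), Btla (-3.70), Hs6st2 (a heparan sulfate sulfotransferase, -3.34), Gmnc (-3.31), Spry4, Prickle1 (-2.70) and Mroh6 (-2.66). Spry4, a feedback inhibitor gene of FGF signalling, was at log2 -2.8 ± 0.882 (adjusted p = 0.0422) and lost its call whichever clone was left out (0.0597 to 0.183).

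**Figure D3:**
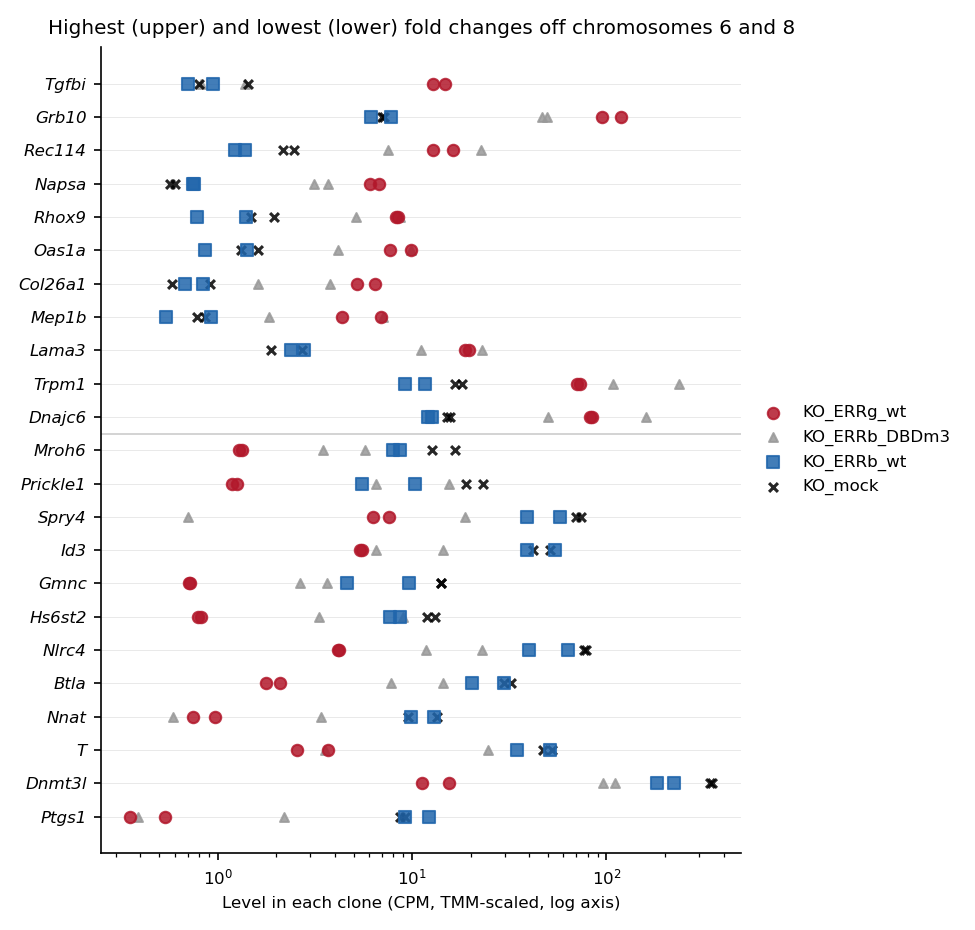
Level of each gene in each clone (x axis, CPM on a log axis) for the 11 highest genes after Esrrg (upper) and the 12 lowest (lower) off chromosomes 6 and 8, with KO_ERRg_wt as circles, KO_ERRb_DBDm3 as triangles, KO_ERRb_wt as squares and KO_mock as crosses. By the rule for choosing them, KO_ERRg_wt and KO_ERRb_wt do not overlap in any of these genes. The KO_ERRb_DBDm3 clones lie on either side of those groups or between them depending on the gene.

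Genes of mitochondrial fuel use were among those that rose. The background beside the list counts below is 14.6% higher and 8.05% lower off chromosomes 6 and 8, and list counts leave those chromosomes out. In fatty acid oxidation, 10 of 20 genes were higher and none lower, with a median log2 fold change of 0.25. Cpt1a, the liver-type carnitine palmitoyltransferase that commits fatty acids to the mitochondrion, had 156 and 146 CPM in KO_ERRg_wt against 68.2 and 51.9 CPM in KO_ERRb_wt (log2 1.33 ± 0.239, adjusted p = 0.00259). Cpt1b, its muscle-type relative, had 34.4 and 35.2 CPM in KO_ERRg_wt against 13.6 and 7.59 CPM in KO_ERRb_wt (log2 1.71 ± 0.338, adjusted p = 0.00447). The exons of Cpt1b are 94.8% shared with ChkbCpt1b, a read-through gene, so its reads belong to either. The list's count of higher genes was 9 without clone 8-3, 3 without 8-4, 4 without 14-1-10 and 5 without 14-11.

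In the TCA cycle, 10 of 20 genes were higher and 1 lower, with a median of 0.2. Idh2, the mitochondrial isocitrate dehydrogenase, led with 331 and 335 CPM in KO_ERRg_wt against 143 and 114 CPM in KO_ERRb_wt (log2 1.37 ± 0.128, adjusted p = 6.64e-05). Sdhb, of succinate dehydrogenase, and Idh3b changed less, by log2 0.43 and 0.41. The lower gene was Sdhd (-0.27 ± 0.0703, adjusted p = 0.0171), which lost its call without 8-4 (0.0866) or 14-11 (0.144). The number of higher genes was 7 without clone 8-3 and 5 without each of the other 3 clones.

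In respiratory complexes I, III and IV, 26 of 52 genes were higher and 1, Uqcrh, was lower (log2 -0.42 ± 0.0854, adjusted p = 0.00526, and 0.0591 without clone 14-11), with a median of 0.23 over the list. The rises were small, with a median of 0.30 among the called members. Ndufb9, a complex I subunit gene, had 161 and 158 CPM in KO_ERRg_wt against 112 and 109 CPM in KO_ERRb_wt (log2 0.52 ± 0.0536, adjusted p = 9.7e-05), and Ndufa6 and Ndufb4, also of complex I, were at 0.50 and 0.48. Without 1 clone, the count was 23 (8-3), 9 (8-4), 8 (14-1-10) or 13 (14-11). Cox6a2, the heart and muscle form of a complex IV subunit, stood apart and was picked out after its values were seen. It had 1.22 and 1.62 CPM in KO_ERRg_wt against 0.0201 and 0.0843 CPM in KO_ERRb_wt (log2 4.71 ± 0.951, adjusted p = 0.00496).

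Other muscle-type genes moved both ways, with 5 of 14 higher and 2 lower. Fabp3, the heart fatty acid binding protein, had 53.9 and 64.4 CPM in KO_ERRg_wt against 15.4 and 12.7 CPM in KO_ERRb_wt (log2 2.08 ± 0.198, adjusted p = 7.41e-05). Ckb, the brain-type creatine kinase, was at log2 1.34 and Atp2a2, a calcium pump of the endoplasmic reticulum, at 0.52. Casq2 and Myl7, both cardiac genes, were the lower ones, and both lost their calls whichever clone was left out. Without each of the clones, 4 or 5 of this list were higher and 0 lower.

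**Figure D4:**
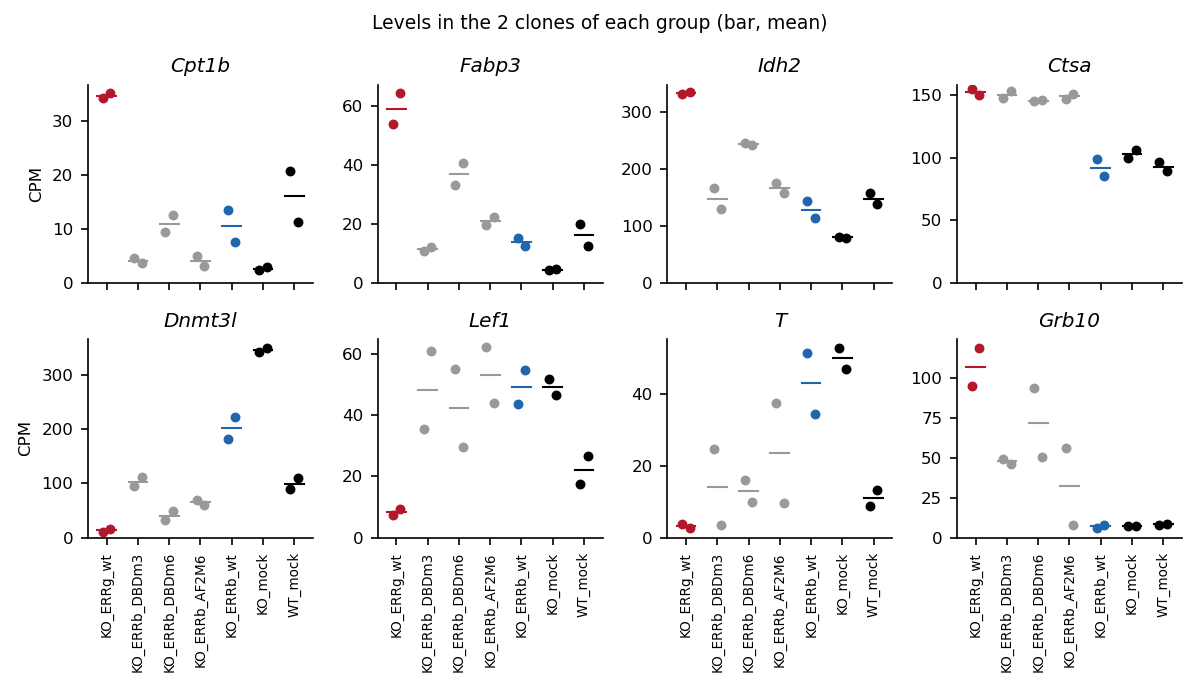
CPM of 8 genes (y axes start at 0) in the 2 clones of each of the 7 groups, with a bar at the mean. Cpt1b, Fabp3, Idh2, Ctsa and Grb10 are higher in KO_ERRg_wt than in KO_ERRb_wt and Dnmt3l, Lef1 and T lower, while the mutant groups range between and past them.

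Levels in the other groups, the mutants among them sharing the chromosome 8 shift, differed by gene. Fabp3 had 53.9 and 64.4 CPM in KO_ERRg_wt, 10.9 and 12.4 in KO_ERRb_DBDm3, 33.4 and 40.6 in KO_ERRb_DBDm6, 19.6 and 22.4 in KO_ERRb_AF2M6 and 4.30 and 4.82 in KO_mock. Idh2 had 331 and 335 CPM in KO_ERRg_wt, 167 and 129 in KO_ERRb_DBDm3, 246 and 241 in KO_ERRb_DBDm6, 175 and 157 in KO_ERRb_AF2M6 and 80.7 and 78.9 in KO_mock. In both Fabp3 and Idh2 the KO_ERRg_wt clones were the highest of the 14 clones. A direct comparison of KO_ERRg_wt with KO_ERRb_DBDm3 shares the KO_ERRg_wt clones with the main one, and in it 24% of genes off chromosomes 6 and 8 were called (13% higher and 11% lower). It gave log2 2.34 for Fabp3 (adjusted p = 0.000121) and 1.17 for Idh2 (0.000318). In that comparison 11 of 20 genes of fatty acid oxidation, 10 of 20 of the TCA cycle and 21 of 52 of the respiratory complexes were higher. The lower genes numbered 1, 0 and 1 in these lists.

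Lysosomal genes rose broadly, with 15 of 18 higher, none lower and a median of 0.52. Ctsa, the gene of protective protein cathepsin A whose upstream bases are printed above, had 155 and 150 CPM in KO_ERRg_wt against 98.7 and 85.3 CPM in KO_ERRb_wt (log2 0.73 ± 0.0739, adjusted p = 8.93e-05). Hexa, of ganglioside breakdown, was at log2 1.14 and the cholesterol transporter gene Npc1 at 0.72. The count of higher genes was 14 without clone 8-3, 9 without 8-4, 8 without 14-1-10 and 10 without 14-11. Levels of Ctsa in the mutant clones were also high, at 148 and 153 CPM in KO_ERRb_DBDm3, 145 and 146 in KO_ERRb_DBDm6 and 147 and 151 in KO_ERRb_AF2M6, but 99.9 and 106 in KO_mock. Against KO_ERRb_DBDm3, 4 of the 18 were higher and none lower. Tfe3, which encodes an activator of lysosomal genes and lies in the X block described below, had 66.2 and 65.2 CPM in KO_ERRg_wt against 44.0 and 51.2 CPM in KO_ERRb_wt (log2 0.47, adjusted p = 0.00231), chosen after its values were seen. Tfe3 stood higher in the mutant clones, between 82.1 and 101 CPM, and in KO_mock, at 113 and 107 CPM. Of the 18 listed genes, 16 were higher in KO_ERRg_wt than in KO_mock and none lower. The part of Tfe3 in the list was not tested.

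Of 77 genes of the cytosolic ribosome, 40 were higher and 1 lower, with a median of 0.22. Apart from Rpl10l (log2 2.11), whose counts are uncertain because it is nearly identical to Rpl10, called rises lay between 0.18 (Rplp0) and 0.42 (Rpl28). These small shifts depend on the clones and on the scaling. The count was 29 without clone 8-3, 4 without 8-4, 2 without 14-1-10 and 12 without 14-11, and 27 with scaling factors taken off chromosomes 6, 8 and 14. Against KO_ERRb_DBDm3 none of the 77 was higher and 19 were lower. The mitochondrial ribosome (10 higher and 7 lower of 65) and the proteasome (2 and 1 of 35) held shares near or below the background for higher genes. With 1 clone left out, the mitochondrial ribosome ran between 0 (without 14-1-10) and 7 higher genes and between 0 (without 8-4 or 14-11) and 6 lower genes.

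Naive pluripotency factors were higher with ERR gamma than with ERR beta in 7 of 14 cases and lower in 1, with 6 not called and a median of 0.48. Against KO_ERRb_DBDm3, 5 of the 14 were higher and 3 lower. The summed level of all 18 naive genes was 4092 and 4120 CPM in KO_ERRg_wt and 3359 and 3324 CPM in KO_ERRb_wt. This sum was 3672 to 3977 CPM in the 6 mutant clones, 3755 and 4001 CPM in WT_mock and 3077 and 3099 CPM in KO_mock. It takes in 4 genes of chromosomes 6 and 8. How far the shifts of chromosomes 6 and 8, or of chromosome 14 in WT_mock, moved the sum was not tested. Tfcp2l1, a core naive factor, had 996 and 990 CPM in KO_ERRg_wt against 589 and 586 CPM in KO_ERRb_wt (log2 0.76 ± 0.0715, adjusted p = 6.46e-05). Prdm14, a repressor of de novo methylation and of FGF signalling in these cells, had 44.4 and 40.7 CPM in KO_ERRg_wt against 15.8 and 13.7 CPM in KO_ERRb_wt (log2 1.53 ± 0.156, adjusted p = 9.19e-05). The groups do not overlap in either gene, which held for all 2055 genes called higher. Klf5 was at log2 0.64. Klf4 was at 0.69 and lost its call without clone 8-4 (adjusted p = 0.0729). The lower member, Gbx2 (log2 -0.84), lost its call without 8-4, 14-1-10 or 14-11. On chromosome 6, against that chromosome's fall, Nanog had 944 and 913 CPM in KO_ERRg_wt and 742 and 678 CPM in KO_ERRb_wt (log2 0.39 ± 0.0628, adjusted p = 0.00134). Of 15 general pluripotency genes 3 were higher and 4 lower, counts that became 2 and 4 without 8-3, 2 and 1 without 8-4, 3 and 0 without 14-1-10 and 1 and 2 without 14-11, and Pou5f1 did not pass (log2 -0.09 ± 0.0723, adjusted p = 0.421). The count of higher naive genes was 4 without clone 8-4 and 5 without any of the other 3.

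Among 8 DNA methylation genes 2 were higher and 3 lower, and the lower ones were the 3 de novo methylation genes. Dnmt3b had 71.5 and 75.4 CPM in KO_ERRg_wt against 218 and 342 CPM in KO_ERRb_wt (log2 -1.93 ± 0.26, adjusted p = 0.000477). Dnmt3a was at log2 -0.81 (adjusted p = 0.011), and its call was lost without 8-3 (0.0511), 14-1-10 (0.0694) or 14-11 (0.0658). Tet1, a methylcytosine dioxygenase gene, was higher by 0.47 (adjusted p = 0.000288). In the other groups Dnmt3b stood at 375 and 261 CPM in KO_ERRb_DBDm3, 471 and 475 CPM in KO_mock and 138 and 162 CPM in WT_mock, all above KO_ERRg_wt.

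Formative and primed genes were lower in 6 of 15 cases and higher in 1, with a median of -0.50 that became -0.17 without clone 14-11. Lef1, a Wnt-responsive transcription factor gene, had 7.31 and 9.19 CPM in KO_ERRg_wt against 43.6 and 54.8 CPM in KO_ERRb_wt (log2 -2.58 ± 0.361, adjusted p = 0.000611). Grhl2, an epithelial transcription factor gene, had 3.08 and 2.64 CPM in KO_ERRg_wt against 15.3 and 18.8 CPM in KO_ERRb_wt (log2 -2.57 ± 0.35, adjusted p = 0.000509). Wnt8a and Sox3 were also lower, at log2 -4.23 and -2.43. Cdh2, the N-cadherin gene, was the higher member (1.36) and lost its call whichever clone was left out, while 5 members were lower in each of those fits. Primitive streak genes were lower in 4 of 7 and higher in 1. Against KO_ERRb_DBDm3, 1 of the 7 was lower and 2 higher, with a median of -0.04. The summed level of the 10 streak and mesoderm genes was 20 and 13.7 CPM in KO_ERRg_wt against 85.8 and 70.7 CPM in KO_ERRb_wt. Elsewhere this sum was 41.1 and 13.1 CPM in KO_ERRb_DBDm3, 28 and 21.2 in KO_ERRb_DBDm6 and 58.1 and 23.1 in KO_ERRb_AF2M6. It was 25.6 and 38.6 CPM in WT_mock and 89.1 and 83 CPM in KO_mock. The number of lower streak genes was 3 without 8-3 or 14-1-10, 2 without 8-4 and 0 without 14-11.

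Feedback targets of the Wnt pathway, which CH activates in this medium, were lower in 4 of 9 and higher in 1. Cdx2 (log2 -3.69 ± 0.641, adjusted p = 0.00213) and Dkk1 (-3.09 ± 0.477, 0.000995) fell, and Axin2 had 83.4 and 79.2 CPM in KO_ERRg_wt against 125 and 129 CPM in KO_ERRb_wt (-0.64 ± 0.158, 0.0136). The call of Axin2 was lost without 8-4 (0.0687), 14-1-10 (0.063) or 14-11 (0.088), and the list held 2 lower genes in each of those cases. Notum, a secreted Wnt inhibitor gene, went the other way, with 36.2 and 29.8 CPM in KO_ERRg_wt against 12.0 and 15.3 CPM in KO_ERRb_wt (1.28 ± 0.258, adjusted p = 0.00497). Notum was higher again in KO_ERRb_DBDm3, at 79.9 and 146 CPM.

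FGF-MAPK feedback genes, which report on the MEK pathway that PD inhibits, were lower in 4 of 13 and higher in none. Dusp6, a phosphatase gene of that pathway, had 36.1 and 38.0 CPM in KO_ERRg_wt against 79.3 and 92.2 CPM in KO_ERRb_wt (log2 -1.21 ± 0.202, adjusted p = 0.0017). The other 3, Spry4, Spred1 and Myc, each lost their call in 3 or 4 of the fits without 1 clone, which left 1 lower gene without 8-4, 14-1-10 or 14-11. In the BMP and Id list, 3 of 11 were higher and 4 lower, and 2 of each without 8-4, 14-1-10 or 14-11. Id4 rose (21.2 and 21.1 CPM in KO_ERRg_wt against 7.93 and 7.88 CPM in KO_ERRb_wt, log2 1.42) where Id3 fell, and Dusp9 was at 1.01 and Bmp4 at -1.22. In the LIF-STAT3 list 3 of 8 were higher, and Il6st, the shared receptor gp130, had 154 and 149 CPM in KO_ERRg_wt against 85.6 and 94.0 CPM in KO_ERRb_wt (log2 0.75 ± 0.0866, adjusted p = 0.000195). Bcl3, another of these 3, lost its call whichever clone was left out.

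Genes of the ATF4 stress response were higher in 7 of 15 and lower in none, with a median of 0.73 that became 0.43 without clone 8-4. Ddit3, the CHOP gene, had 29.7 and 31.8 CPM in KO_ERRg_wt against 6.64 and 4.85 CPM in KO_ERRb_wt (log2 2.42 ± 0.284, adjusted p = 0.000239). Psph, of serine synthesis, was at 0.73 and Cebpb at 1.75. The count was 7 without clone 8-3, 3 without 8-4, 5 without 14-1-10 and 4 without 14-11. Atf4 itself did not pass (log2 0.30).

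Glycolytic genes divided, with 4 higher and 5 lower of 17 and a median of 0.00. Hk1, which starts glycolysis, had 126 and 117 CPM in KO_ERRg_wt against 60.8 and 47.5 CPM in KO_ERRb_wt (log2 1.17 ± 0.152, adjusted p = 0.000409). Ldha, which makes lactate, had 230 and 197 CPM in KO_ERRg_wt against 435 and 430 CPM in KO_ERRb_wt (log2 -1.02 ± 0.164, adjusted p = 0.00138). Pfkl, a phosphofructokinase, was at -0.58. Slc2a3, the neuronal-type glucose transporter, was higher despite lying on chromosome 6, with 2742 and 2777 CPM in KO_ERRg_wt against 1938 and 1593 CPM in KO_ERRb_wt (log2 0.64 ± 0.0977, adjusted p = 0.000882). In glutamine and glutamate metabolism 5 of 10 were higher and 1 lower, and 2 were higher without 8-4, 14-1-10 or 14-11. Got1 (log2 0.66) and the glutamine transporter gene Slc38a1 (0.54) were the 2 that did not depend on a clone. Among imprinted genes, the amino acid transporter Slc38a4 had 294 and 240 CPM in KO_ERRg_wt against 72.4 and 69.6 CPM in KO_ERRb_wt (log2 1.91 ± 0.324, adjusted p = 0.00187).

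**Figure D5:**
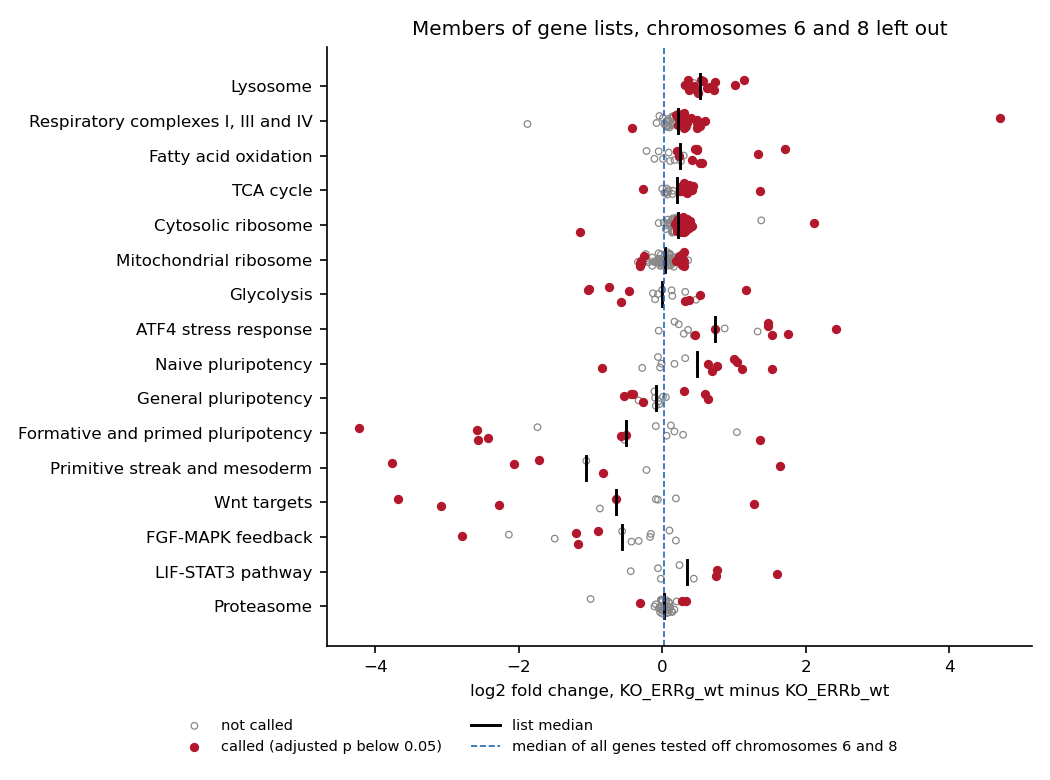
Log2 fold change, KO_ERRg_wt minus KO_ERRb_wt (x axis), of each tested member of the lists on the y axis, chromosomes 6 and 8 left out: filled points passed the test, open points did not, black bars are list medians and the dashed line is the median of all genes tested there (0.025). The medians of ATF4 stress response (0.73, or 0.43 without clone 8-4), Lysosome (0.52) and Naive pluripotency (0.48) lie right of the line. Left of it lie those of Primitive streak and mesoderm (-1.06), Wnt targets (-0.64), FGF-MAPK feedback (-0.56) and Formative and primed pluripotency (-0.50, or -0.17 without clone 14-11).

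Some of the remaining lists, given first, held a called share below the 22.6% of all genes tested off chromosomes 6 and 8. Higher and lower counts were 3 and 0 of 15 for ERR receptors and cofactors (Esrrg itself, Ncoa2 and Kdm1a), 0 and 2 of 10 for TFIIH subunits, 0 and 2 of 15 for p53 targets, and 0 and 1 of 15 for interferon genes. They were 5 and 2 of 17 for DNA replication, 2 and 1 of 10 for G1 cyclins and kinases, 4 and 2 of 21 for cholesterol and fatty acid synthesis, 4 and 2 of 19 for imprinted genes and 4 and 2 of 14 for germline genes. From DNA replication to germline genes, the called share of each list was above 22.6%. ERR receptors and cofactors held 1 higher gene without 8-4 or 14-11, and TFIIH subunits 0 lower genes without 8-3, 14-1-10 or 14-11. With 1 clone left out, the higher count ran between 1 and 3 for DNA replication, between 0 and 3 for cholesterol and fatty acid synthesis, between 0 and 2 for germline genes and between 3 and 4 for imprinted genes, and without 8-4 it was 1, 0, 0 and 3. Among these lists' members, Ccnd3, a D-type cyclin, had 146 and 137 CPM in KO_ERRg_wt against 74.6 and 62.0 CPM in KO_ERRb_wt (log2 1.05 ± 0.106, adjusted p = 9.05e-05). Pmaip1, the p53 target that encodes NOXA, had 19.5 and 22.2 CPM in KO_ERRg_wt against 108 and 125 CPM in KO_ERRb_wt (log2 -2.48 ± 0.413, adjusted p = 0.00176).

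Markers of other cell types also differed between the groups. The summed level of 18 primitive endoderm genes was 1158 and 1143 CPM in KO_ERRg_wt against 785 and 683 CPM in KO_ERRb_wt, and 2 of 15 tested off chromosomes 6 and 8 were higher and 1 lower. Nid1, a basement membrane gene, had 221 and 197 CPM in KO_ERRg_wt against 85.2 and 77.9 CPM in KO_ERRb_wt (log2 1.36 ± 0.117, adjusted p = 5.04e-05), and Sparc, Lamc1 and Nid1 carried most of the sum. Col4a1, another basement membrane gene of the list, on chromosome 8, fell to 9.79 and 9.08 CPM in KO_ERRg_wt, against 27.4 and 27 CPM in KO_ERRb_wt (log2 -1.53 ± 0.204, adjusted p = 0.000462), and Col4a2 (-1.18) lost its call without 8-3, 14-1-10 or 14-11. The lower gene off chromosomes 6 and 8 was Hnf4a (-1.89), which lost its call whichever clone was left out. The defining factors Gata4 (log2 0.01), Gata6 (0.76) and Sox17 (0.34) did not pass. The 11 trophoblast genes, among which Krt7 rose (6.27 and 6.27 CPM in KO_ERRg_wt against 0.281 and 0.126 CPM in KO_ERRb_wt, log2 4.92 ± 0.486), summed to 208 and 218 CPM in KO_ERRg_wt against 157 and 126 CPM in KO_ERRb_wt. Of these 3 of 7 were higher (Krt7, Tfap2c and Ets2) and 1 lower, and 1 was higher without 14-11. The lower one was Cdx2, the defining factor of the trophoblast, at 0.179 and 0.276 CPM in KO_ERRg_wt against 2.71 and 3.2 CPM in KO_ERRb_wt. Keratin and adhesion genes as a whole were lower in 3 of 13 and higher in 1, with a median of -0.14 that became 0.18 without clone 8-3. The higher gene was Dsp, the desmoplakin gene (44.7 and 43.1 CPM in KO_ERRg_wt against 14.0 and 11.8 CPM in KO_ERRb_wt, log2 1.77).

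The 10 fibroblast feeder genes summed to 262 and 274 CPM in KO_ERRg_wt against 144 and 188 CPM in KO_ERRb_wt. Vim accounted for nearly all of it, with 261 and 271 CPM in KO_ERRg_wt against 138 and 184 CPM in KO_ERRb_wt, and 5 and 5 of the 10 genes were at 0 in the KO_ERRg_wt clones against 3 and 1 in the KO_ERRb_wt clones. Neuroectoderm genes summed to 86.5 and 91.6 CPM in KO_ERRg_wt and 72.9 and 75.2 CPM in KO_ERRb_wt, with 2 of 4 higher and 1 lower. The lower one, Nes, lost its call whichever clone was left out. In bulk RNA, fewer cells of a type and less RNA per cell cannot be told apart, and the part of such cells in the other lists was not tested.

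On chromosome 6, genes that rose against the shift included Vwf, the von Willebrand factor gene, with 22.7 and 19.1 CPM in KO_ERRg_wt against 2.93 and 2.15 CPM in KO_ERRb_wt (log2 3.04 ± 0.234, adjusted p = 3.9e-05). Aldh1l1, of folate metabolism, had 94.4 and 88.4 CPM in KO_ERRg_wt against 35.2 and 26.8 CPM in KO_ERRb_wt (log2 1.56 ± 0.15). Gng12 and St8sia1 were both at 1.89. Far below the shift of -0.375 lay Ccnd2, another D-type cyclin, with 0.681 and 0.513 CPM in KO_ERRg_wt against 7.63 and 9.25 CPM in KO_ERRb_wt (log2 -3.81 ± 0.3, adjusted p = 3.9e-05). Epha1 (-3.48), Wnt5b (-2.80) and Peg10 (-2.43, an imprinted gene) followed. Peg10 had 131 and 98.0 CPM in KO_ERRg_wt against 646 and 588 CPM in KO_ERRb_wt, with 480 and 220 CPM in KO_ERRb_DBDm3.

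On chromosome 8, Sfrp1, a secreted Wnt antagonist gene, had 141 and 149 CPM in KO_ERRg_wt against 61.3 and 48.9 CPM in KO_ERRb_wt (log2 1.4 ± 0.174, adjusted p = 0.000301). Of the 4 highest there, Sfrp1 alone kept its call whichever clone was left out. Adgre5 (2.29) lost it without 8-4 (adjusted p = 0.0611), Sh2d4a (1.5) without 8-4 (0.0831) or 14-1-10 (0.052), and Kbtbd11 (2.33) in all cases. Among the lowest were Ido2 (-2.12) and Ctxn1 (-1.65), which kept their calls, and Nkd1 (-1.55, lost without 14-11 at 0.0596) and Mmp2 (-1.55, lost in all cases). Zfp42, the Rex1 gene of naive cells, had 257 and 244 CPM in KO_ERRg_wt against 353 and 386 CPM in KO_ERRb_wt (log2 -0.56), close to the chromosome's median of -0.554, and stood at 0.01 once each clone's chromosomes 6, 8 and 14 were centred.

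A block of the X chromosome between 7 and 8.5 Mb was higher in KO_ERRg_wt, with 19 of 37 genes higher (51.4%), 2 lower (5.41%) and a median of 0.453. Hdac6, a cytoplasmic deacetylase gene, had 86.9 and 94.3 CPM in KO_ERRg_wt against 38.9 and 42.2 CPM in KO_ERRb_wt (log2 1.16 ± 0.095, adjusted p = 3.9e-05), and Wdr45 (1.14), Prickle3 (1.79) and Plp2 (0.79) were alike in direction. Here the KO_ERRb_wt clones were the ones that stood apart, which was the reason for choosing the block. Earlier results of these data had shown the block lower in KO_ERRb_wt and gave its bounds. Its direction was thus fixed beforehand, and the block as a whole is described without a test. The share of the block's genes called in either direction was 56.8%. Over 27 expressed genes, the median against the KO_ERRb_wt mean was 0.438 and 0.458 in KO_ERRg_wt, 0.528 to 0.703 in the 6 mutant clones, 0.68 and 0.646 in KO_mock and 0.449 and 0.447 in WT_mock. Hdac6 had 93.7 and 88.5 CPM in KO_mock, close to its level in KO_ERRg_wt. By this median the KO_ERRb_wt clones were the lowest of the 14, though 16 of the 37 genes were not called. For this block, the construct and the making of those clones cannot be told apart here.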

How the data were processed

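RNA-seq libraries were made from rRNA-depleted RNA with strand marking and read as single ends of 100 bp, per the labels' protocols. Per the submitters' processing notes, the authors aligned reads to mm10 with STAR 2.7.8a, and they deposited read counts per gene from featureCounts (2.0.1 per the file headers, 2.0.10 per the processing notes). Per the file headers, exons were counted on the reverse strand, a read in overlapping genes counted for each, and reads aligned to several places were not counted, so multi-copy genes are undercounted. Of 763 genes named or listed, 26 share exonic bases with another gene, 14 of them over 5%. The table held 24421 genes and no mitochondrial ones. Rn45s took 1.79% to 2.53% of these libraries and was kept.

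Counts were summed per clone and 14 clones in 7 groups were fitted with edgeR 4.0.16 (R 4.3.3): filterByExpr, TMM (factors 0.972 to 1.05) and a robust quasi-likelihood fit with 7 residual degrees of freedom, on 15238 genes, with Benjamini-Hochberg adjustment over all of them and calls at 0.05. Log2 fold changes are KO_ERRg_wt minus KO_ERRb_wt with a prior count of 0.125, and SE is the absolute fold change over the root of F. CPM were scaled by TMM, except for the 3 receptor genes, where plain library totals were used. Chromosome medians used the mean of the KO_ERRb_wt clones as zero. The fit was tested on simulated data. Those counts used the fit's own estimate of spread and held no chromosome shift, so they do not check the calls above.

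Named genes followed a rule: among called genes with mean log2 CPM of at least 1 and no overlap between groups, the 12 highest and 12 lowest off chromosomes 6 and 8 and the X block, 4 and 4 on each of chromosomes 6 and 8, and the 4 smallest p in the X block. Up to 4 called genes per list were added without the conditions on level and overlap. Further list members are given as values, and some genes that meet the rule are not reported here. The groups, the 35 lists and these rules were chosen with earlier results of these data known, and the direct comparison with KO_ERRb_DBDm3 was added after seeing the data. Promoter windows from RefSeq matched 11119 of the tested genes. DESeq2 1.42.0, other scalings, filters, library choices and leaving out each clone were the alternatives.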

Additional observations from a re-analysis of the deposited data

How the results depend on the processing

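No paired analysis was possible because both KO_ERRg_wt libraries have the same library number in the column headers, so the groups share fewer than 2 numbers, and clones, whose libraries were summed, are not numbered across groups. The total of called genes was 4039 with DESeq2, 3872 with RLE factors, 3832 with TMM factors off chromosomes 6, 8 and 14, 3438 with no filter, 3744 at CPM of at least 1, 5160 in a fit of the 4 clones alone, 3719 and 2778 with only the library labelled rep1 or rep2, and 3327 with chromosomes 6, 8 and 14 centred in each clone. Higher genes made up 64.4% of those called off chromosomes 6 and 8, and 59 to 72.5% over the alternatives. Factors off those chromosomes put the medians at -0.398 (chromosome 6), -0.578 (chromosome 8) and 0.43 (X block). The chromosome 6 median was -0.34 with no filter, -0.397 at CPM of at least 1, and -0.385 and -0.383 with rep1 or rep2 alone. The 4 clones alone gave 59 higher and 385 lower genes on chromosome 6 and 34 higher on chromosome 8, and rep2 alone gave 706 lower genes off both chromosomes. By construction, centring took the medians to 0.05 and 0.02, with 124 higher and 68 lower genes on chromosome 6 and 132 higher and 46 lower on chromosome 8, and it turned the sign of Mcm5 (0.09), Cdt1 (0.17), Got2 (0.03), Mrps31 (0.09), Zfp42 (0.01), Psmd7 (0.08) and Ndufb7 (0.09), all on chromosome 8. Leaving out 1 clone, which leaves a lone clone assumed to vary like the other groups, gave 1744 to 2826 called genes in all, 874 to 1460 higher and 359 to 784 lower off chromosomes 6 and 8, 18 to 29 higher and 88 to 147 lower on chromosome 6, 8 to 15 higher and 351 to 393 lower on chromosome 8, and 15 to 17 called in the X block. The medians then ran between -0.395 and -0.366 on chromosome 6, between -0.574 and -0.541 on chromosome 8, and between 0.378 and 0.46 in the X block. Of 156 named genes that were called, 105 were called whichever clone was left out. Elsewhere the cause of a changed count was not tested. Each KO_ERRg_wt clone rests on 1 library, which limits the precision of genes of few counts.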
